A study of Mus musculus with 54 samples.

Results

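The genes described here are 10 cell-cycle inhibitors and senescence-associated genes, chosen by symbol among the 54232 genes of the count tables, and all 10 were found by the symbol of their Ensembl identifier. They are Cdkn1a (ENSMUSG00000023067), Cdkn1b (ENSMUSG00000003031), Cdkn1c (ENSMUSG00000037664), Cdkn2a (ENSMUSG00000044303), Cdkn2b (ENSMUSG00000073802), Cdkn2c (ENSMUSG00000028551), Trp53 (ENSMUSG00000059552), Mdm2 (ENSMUSG00000020184), Ccnd1 (ENSMUSG00000070348) and Gdf15 (ENSMUSG00000038508). Their mRNA was measured by bulk RNA sequencing in mice given Cmpd60, a benzamide inhibitor of the histone deacetylases HDAC1 and HDAC2, or its vehicle. Each mouse received a daily intraperitoneal injection for 14 days, at 22.5 mg/kg for Cmpd60 or of the same DMSO, PEG400 and saline mixture without the compound.

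The first cohort was male BL6 mice of 20 months. It gave 5 vehicle and 6 Cmpd60 kidneys, 6 vehicle and 6 Cmpd60 brains, and 6 vehicle and 5 Cmpd60 hearts. The second cohort was brains of mice of 6 to 7 months, either APPSWE-1349 transgenics on the BL6 background, which carry human amyloid precursor protein with the Swedish mutation, or their control littermates without the transgene. It gave 5 vehicle and 4 Cmpd60 APPSWE brains and 5 vehicle and 5 Cmpd60 littermate brains, plus 1 APPSWE brain whose treatment was given as vehicle by the sample labels and as compound by the study, which was left out of every group. For the kidneys the treatment field of the labels was the opposite of the titles and source names. The titles were followed, and the column names of the study's kidney table give each library the same treatment as its title. If the treatment field were right, every kidney difference between treatments below would change sign, and the vehicle kidney levels and vehicle tissue comparisons would rest on Cmpd60 kidneys. The labels do not tie kidney, brain and heart libraries to individual mice, so comparisons between tissues treated them as separate animals.

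Progress from G1 into S phase is driven by cyclin-dependent kinases, which phosphorylate the retinoblastoma protein and release E2F factors. The Cip/Kip inhibitors (Cdkn1a, Cdkn1b and Cdkn1c, coding for p21, p27 and p57) bind cyclin-kinase complexes broadly, whereas the Ink4 inhibitors (the p16 product of Cdkn2a, with Cdkn2b and Cdkn2c) bind the kinases that partner D-type cyclins. Cdkn2a also codes for Arf, which restrains Mdm2, the ubiquitin ligase of p53. Cdkn1a and Mdm2 are themselves targets of p53, and Cdkn1a and Cdkn2a are the inhibitors most used as marks of cellular senescence in aged tissue. Ccnd1 codes for cyclin D1, and Gdf15 for a secreted stress cytokine induced by p53 and by the integrated stress response. Induction of Cdkn1a is a well known response of cultured cells to histone deacetylase inhibitors.

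Libraries held 23584609 to 57430113 gene counts, so 3 counts corresponded to at most 0.127 CPM, the count scaled to library size, in any library. Summed markers of kidney epithelium, neurons and glia, and cardiomyocytes were highest in the tissue named by the labels, and no pair of replicates was alike enough to be 1 library deposited more than once. Of the 20 libraries of the APPSWE cohort, 5 detected fewer than 17000 genes (15044 to 16577) and the other 15 detected 18122 to 24821. Per the study's methods, mice of both cohorts were single housed. Nothing in the labels says which libraries came from which litter, and the p-values measure the spread between these libraries. Differences are log2 fold changes from edgeR with their standard errors, fitted over all genes that had over 2 counts in 3 or more libraries, and called at a Benjamini-Hochberg adjusted p under 0.05. Beside this the counts at an unadjusted p under 0.01 and under 0.05 are given for all comparisons but those between vehicle tissues. The study used the unadjusted 0.01 for differential expression in kidney and brain, and an adjusted p under 0.05 for that in heart. In bulk tissue, fewer cells of a type and less RNA per cell cannot be told apart.

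The 250 bases before annotated starts are shown for Cdkn1a and Cdkn2a, which have separate starts known for distinct transcripts, since the counts were made per gene and do not say which start was used. The windows are from the RefSeq annotation of GRCm38.p6, each printed on the strand of its gene, 5′ to 3′. Capitals mark the GC box GGGCGG on either strand and the p53 half-site consensus, which is its own reverse complement. Cdkn1a lies on chromosome 17, with the outer start after chr17:29090729-29090978 and the inner start after chr17:29093519-29093768, both on the plus strand.
Cdkn1a, before the outer start: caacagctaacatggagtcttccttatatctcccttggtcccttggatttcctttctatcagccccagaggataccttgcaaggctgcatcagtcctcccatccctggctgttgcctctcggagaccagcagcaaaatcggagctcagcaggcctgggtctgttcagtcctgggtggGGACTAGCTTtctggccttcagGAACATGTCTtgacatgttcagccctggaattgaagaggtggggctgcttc
Cdkn1a, before the inner start: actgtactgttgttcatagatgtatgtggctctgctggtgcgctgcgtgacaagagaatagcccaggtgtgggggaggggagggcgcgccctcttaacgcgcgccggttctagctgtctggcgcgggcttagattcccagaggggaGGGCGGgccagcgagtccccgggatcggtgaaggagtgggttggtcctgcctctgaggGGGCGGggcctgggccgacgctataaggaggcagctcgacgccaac
Cdkn2a lies on chromosome 4 on the minus strand, with the Arf start after chr4:89294620-89294869 and the p16 start after chr4:89282193-89282442.
Cdkn2a, before the Arf start: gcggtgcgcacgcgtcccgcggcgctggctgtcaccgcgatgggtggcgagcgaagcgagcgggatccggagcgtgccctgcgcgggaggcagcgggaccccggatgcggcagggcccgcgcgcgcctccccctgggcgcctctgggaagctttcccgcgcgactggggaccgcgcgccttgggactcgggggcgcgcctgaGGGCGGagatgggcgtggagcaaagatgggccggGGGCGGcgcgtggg
Cdkn2a, before the p16 start: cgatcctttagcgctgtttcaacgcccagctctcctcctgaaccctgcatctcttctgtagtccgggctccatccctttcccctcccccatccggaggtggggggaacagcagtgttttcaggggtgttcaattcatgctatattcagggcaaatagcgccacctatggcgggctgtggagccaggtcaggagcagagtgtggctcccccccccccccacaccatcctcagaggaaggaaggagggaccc
The window before the outer Cdkn1a start held 2 p53 half-sites and 0 GC boxes, and that before the inner start held 2 GC boxes and 0 half-sites. The Arf window held 2 GC boxes and 78.4% G or C, against 0 boxes and 60% before the p16 start. Neither Cdkn2a window held a p53 half-site. RefSeq gave 12 windows for 8 of the 10 genes, leaving out Cdkn1c and Ccnd1. A GC box was in 5 of the 12 windows (the others being before starts of Cdkn1b, Cdkn2c and Mdm2) and in 32.7% of all 32851 windows. A p53 half-site was in 3 of the 12 (Cdkn1a, Trp53 and Mdm2) and in 7.13% of all windows. A match describes these letters and is not evidence of binding.

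In vehicle-treated 20-month mice, most of the 10 genes differed between tissues. Ccnd1, the p15 gene Cdkn2b, Cdkn1c, Trp53 and Gdf15 were highest in kidney, Cdkn1a and Mdm2 in heart, and Cdkn1b in brain. Between kidney and brain 7 of the 10 genes were higher in kidney and 2 lower, with edgeR's adjusted p under 0.05 in each, where 72.5% of all tested genes were called (32.8% higher and 39.8% lower). Between kidney and heart 6 were higher in kidney and 3 lower (56.7% of all genes called, 31.1% higher and 25.6% lower), and between brain and heart 1 was higher in brain and 6 lower (72.1%, 43.2% higher and 28.9% lower). With most genes called in each of these comparisons, the counts do not set the 10 genes apart. The median log2 fold change of the 10 was 1.48, 0.38 and -1.05 in the 3 comparisons, and that of all tested genes was -0.24, 0.02 and 0.44. Without Cdkn2a, which was at the count floor in vehicle kidney, the medians were 1.85, 0.57 and -1.07.

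**Figure D1:**
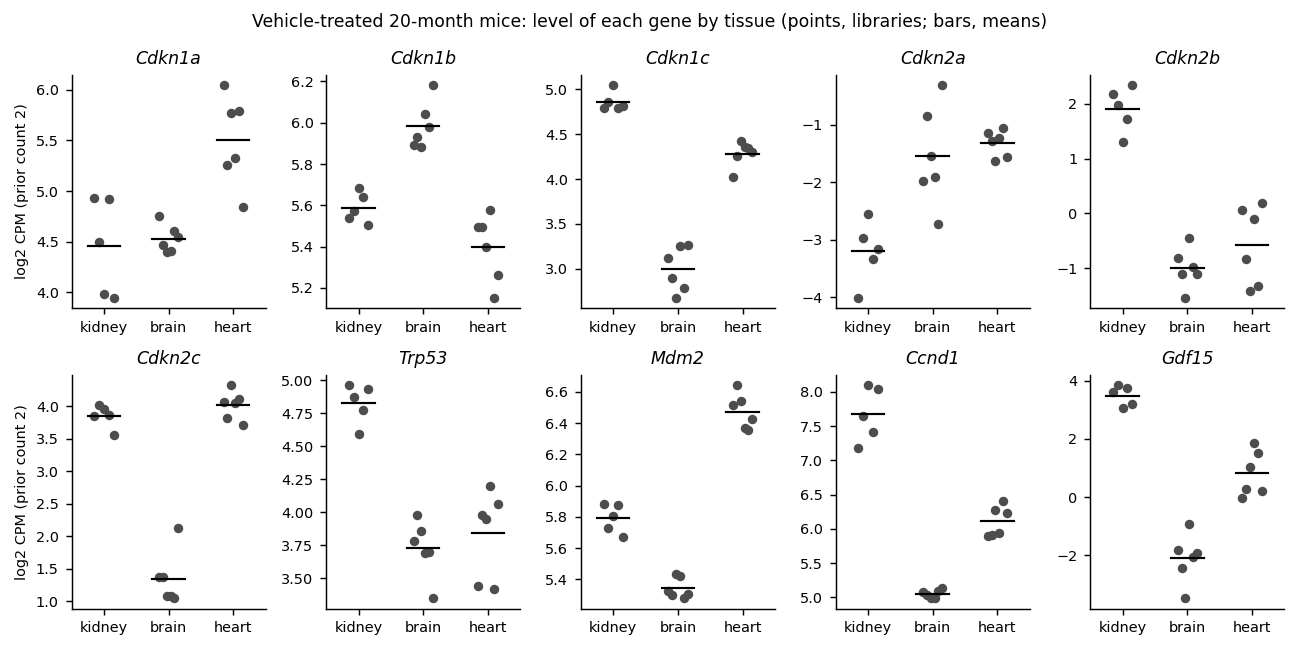
Level of each of the 10 genes in vehicle-treated 20-month kidney (5 libraries), brain (6) and heart (6), as log2 CPM with a prior count of 2. Points are libraries and bars are means, and each panel has its own axis. Gdf15, Ccnd1 and Cdkn2b stand highest in kidney, whereas Cdkn2a stands lowest there.

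Levels of different genes were compared per kilobase of exon. In vehicle kidney, Ccnd1 was the most abundant at 54.9 ± 15 CPM per kb (SD, n = 5), followed by Cdkn1c at 15.0 ± 1.2. Mdm2 (10.9 ± 0.70), Cdkn1b (10.6 ± 0.55) and Cdkn1a (10.3 ± 3.3) came next and did not differ beyond their spread. Below them were Trp53 at 7.04 ± 0.71, Gdf15 at 6.18 ± 1.4 and Cdkn2c at 5.36 ± 0.63, again with overlapping spreads between neighbours, and then Cdkn2b at 2.72 ± 0.73. Cdkn2a came last at 0.0448 ± 0.034 CPM per kb. In vehicle brain the highest was Cdkn1b at 13.9 ± 1.1 CPM per kb (SD, n = 6), and in vehicle heart the first 3 were Cdkn1a (21.2 ± 6.2), Ccnd1 (18.2 ± 2.8) and Mdm2 (17.6 ± 1.4, n = 6), which overlapped. Cdkn2a was at 0.286 ± 0.21 CPM per kb in brain and 0.295 ± 0.054 in heart.

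Among the Cip/Kip genes, Cdkn1a was at 22.9 ± 7.4 CPM in vehicle kidney, 23.1 ± 2.2 in brain and 47.1 ± 14 in heart, on one scale for all 34 libraries of the 20-month mice. Kidney and brain differed by a log2 fold change of -0.02 ± 0.23 (SE, 95% interval -0.48 to 0.45), whereas both were below heart. The kidney minus heart difference was -1.04 ± 0.23 (edgeR adjusted p = 0.000223), and the brain minus heart difference -1.03 ± 0.22 (adjusted p = 9.47e-05). Cdkn1b was at 63.4 ± 5.2 CPM in brain, 48.1 ± 2.5 in kidney and 42.3 ± 4.6 in heart, and every brain was above every heart (0.59 ± 0.08, adjusted p = 2.4e-08). The smaller kidney minus heart difference of Cdkn1b (0.19 ± 0.08) had an adjusted p of 0.0492 by edgeR, was lost with DESeq2 size factors (adjusted p = 0.209), and had a p of 0.0229 to 0.265 when single libraries were left out. Cdkn1c, an imprinted gene, was at 29.03 ± 2.3 CPM in kidney, 19.5 ± 1.8 in heart and 8.04 ± 1.4 in brain, with no overlap between any pair of tissues.

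Among the Ink4 genes, Cdkn2a had 0 to 3 counts per vehicle kidney library (0.0525 ± 0.040 CPM), which lies at the floor of 3 counts, against 0.335 ± 0.24 CPM in brain and 0.345 ± 0.063 in heart. Vehicle hearts had 5 to 10 counts, and every kidney was below every heart (edgeR adjusted p = 0.000327). The size of this difference depends on the prior count and is not given. Cdkn2b was at 3.79 ± 1.0 CPM in kidney, 0.452 ± 0.13 in brain and 0.679 ± 0.34 in heart, so that every kidney was above every brain and heart (8.33-fold over brain, adjusted p = 1.63e-11, and 5.49-fold over heart, adjusted p = 3.26e-09). Cdkn2a and Cdkn2b are neighbours on chromosome 4, and their order between kidney and heart was opposite. Cdkn2c did not differ beyond its spread between heart (16.2 ± 2.4 CPM) and kidney (14.4 ± 1.7, log2 difference -0.17 ± 0.15, 95% interval -0.47 to 0.13) and was at 2.58 ± 0.88 CPM in brain, below every kidney and heart.

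In the p53 axis, Trp53 was at 28.5 ± 2.9 CPM in kidney, above 13.3 ± 1.9 in brain and 14.6 ± 3.2 in heart (2.15-fold and 1.95-fold, edgeR adjusted p = 4.59e-10 and 1.46e-08). Mdm2 had another order and was highest in heart, at 89.1 ± 6.9 CPM against 55.5 ± 3.5 in kidney and 40.6 ± 1.9 in brain. Ccnd1 was at 211 ± 56 CPM in kidney, 69.6 ± 11 in heart and 33.1 ± 1.3 in brain, with no overlap between tissues. Gdf15 had the largest fitted tissue difference of the 10 genes, with 11.4 ± 2.6 CPM in kidney, 1.93 ± 1.1 in heart and 0.203 ± 0.15 in brain (54.3-fold between kidney and brain, adjusted p = 1.94e-14). Vehicle brains held 1 to 18 counts of Gdf15, in part at the count floor, so the size of this fold is uncertain. On the log2 scale it was 5.53 to 6.22 with single libraries left out.

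Treatment of 20-month mice with Cmpd60 addressed whether the inhibitor changed these genes in aged tissue. From here on CPM were scaled within each tissue, or within the APPSWE cohort, and not over the 34 libraries. Vehicle levels therefore differ from those above, as for Cdkn1a in heart, with a mean of 37.7 CPM here and 47.1 on the scale of 34 libraries. Comparisons between vehicle tissues keep the scale of 34 libraries. In kidney, 7 of the 10 genes had a higher and 3 a lower fitted level with Cmpd60, the largest being Gdf15 (1.62-fold) and Ccnd1 (1.53-fold) among the genes above the count floor. With edgeR 0 of the 10 were called (0.3% of all genes tested in kidney were called), 4 had an unadjusted p under 0.05 (11.3% of all genes), and 2 of 10 had one under 0.01, where 3.78% of all genes did. These were Cdkn1c and Ccnd1. DESeq2 called 1 of the 10, Cdkn1c (2.07% of all genes), and limma-voom called 0 (0.338%). Their median log2 fold change was 0.25, and that of all genes tested -8.01e-05. The median of the 9 genes other than Cdkn2a, whose fitted value rests on vehicle libraries at the count floor, was 0.14. Without Cmpd60 replicate 55, which stood apart from the other kidneys, 7 of the 10 were higher, 2 had an unadjusted p under 0.05 and 1 under 0.01 (11% and 3.98% of all genes), and the median was 0.14.

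**Figure D2:**
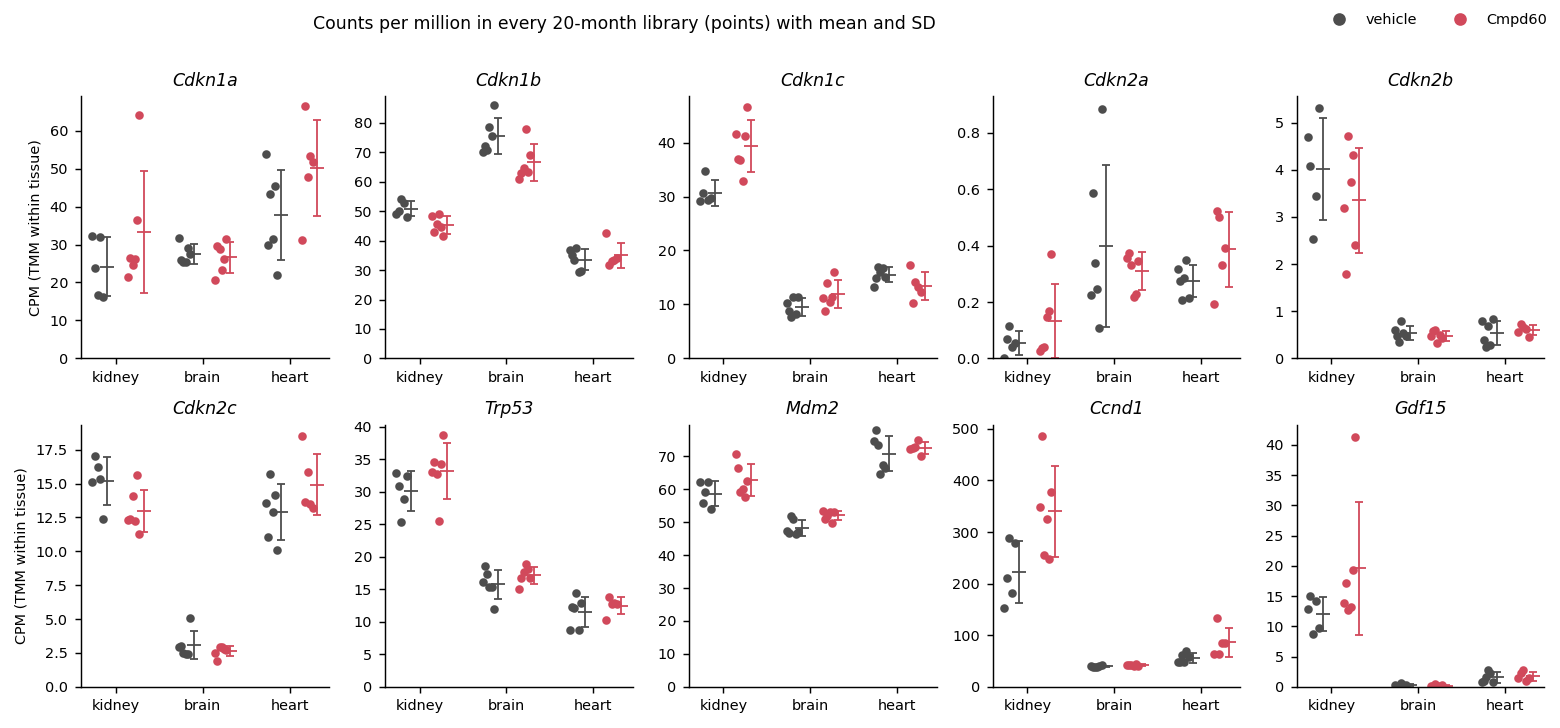
CPM of each of the 10 genes, scaled within each tissue, in every library of the 20-month kidneys, brains and hearts. Grey is vehicle and red Cmpd60, with the mean and SD of each group. The Cmpd60 kidney with 64.3 CPM of Cdkn1a also holds the highest Gdf15, and the Cmpd60 heart with 134 CPM of Ccnd1 stands apart from the other 10 hearts.

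Cdkn1c had the smallest p of the 10 genes in kidney. The vehicle kidneys were at 29.1, 29.3, 29.6, 30.7 and 34.8 CPM and the Cmpd60 kidneys at 32.8 to 46.6 (median 39.1), so 5 of 6 Cmpd60 libraries were above all vehicle libraries. The log2 fold change was 0.36 ± 0.10 (95% interval 0.15 to 0.56, edgeR adjusted p = 0.144), and with DESeq2 its adjusted p was 0.0319. Ccnd1 was at 153, 181, 212, 279 and 288 CPM in vehicle kidneys and at 248 to 486 (median 337) in Cmpd60 kidneys, of which 4 of 6 lay above all vehicle kidneys. Its log2 fold change was 0.61 ± 0.19 (95% interval 0.20 to 1.02, edgeR adjusted p = 0.227).

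Cdkn1a ranged from 16.3 to 32.2 CPM in the 5 vehicle kidneys (16.3, 16.7, 23.8, 31.96 and 32.2) and from 21.5 to 64.3 (median 26.4) in the Cmpd60 kidneys. Only replicates 54 (36.5) and 55 (64.3) were above the vehicle range. The log2 fold change of Cdkn1a was 0.46 ± 0.27 (95% interval -0.12 to 1.05, edgeR adjusted p = 0.545), and 0.17 without replicate 55 (adjusted p = 0.831). Gdf15 was at 8.70, 9.65, 12.9, 14.1 and 15.1 CPM in vehicle kidneys and at 12.8 to 41.3 (median 15.5) in Cmpd60 kidneys, the highest again in replicate 55. Its log2 fold change was 0.70 ± 0.28 (edgeR adjusted p = 0.374) with all libraries and 0.34 (adjusted p = 0.489) without replicate 55. The same library moved Cdkn1c and Ccnd1 less, to 0.31 and 0.58.

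Replicate 55 also stood apart in kidney injury markers. The summed CPM of Havcr1 (kidney injury molecule 1), Lcn2, Krt20 and Vcam1 was 1087 there and 441 in replicate 54, against 54.3 to 228 in the other 4 Cmpd60 kidneys and 76.3 to 287 in the vehicle kidneys. Summed kidney epithelium markers were 6764 CPM in replicate 55 and 11294 to 14755 in the other 10 kidneys. The 20 proliferation genes summed to 395 CPM in replicate 55, against 149.8 to 208.1 in the other Cmpd60 kidneys and 147.1 to 192 with vehicle. Leukocyte markers were highest in replicate 54, at 393.5 CPM, with 107.5 to 203 in the other Cmpd60 kidneys and 120.3 to 243 with vehicle. With edgeR 0 of these 4 injury genes were called in kidney, and Lcn2 had an unadjusted p of 0.00343. In heart, where Havcr1 and Krt20 were below the filter, Lcn2 alone was called, at 20.7 against 4.17 CPM (edgeR adjusted p = 0.0122). The part of tubule injury, dividing cells and leukocytes in the Cdkn1a and Gdf15 values was not tested. Without replicate 55, 90 genes were called in kidney in place of 62.

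**Figure D3:**
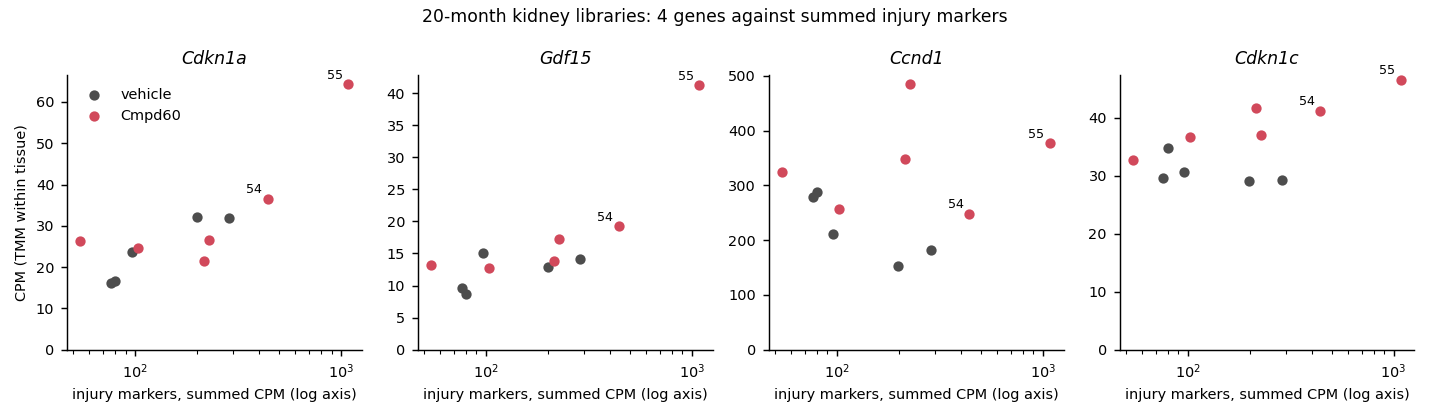
CPM of Cdkn1a, Gdf15, Ccnd1 and Cdkn1c in the 11 kidneys of 20-month mice (vertical axes) against the summed CPM of Havcr1, Lcn2, Krt20 and Vcam1 (log axis), grey for vehicle and red for Cmpd60. Replicate 55 is farthest right at 1087 CPM and highest in Cdkn1a, Gdf15 and Cdkn1c, whereas the highest Ccnd1, 486 CPM, is in another library.

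With edgeR none of the other genes in kidney had an adjusted p under 0.05 or an unadjusted p under 0.01. Cdkn1b was at 47.97, 48.9, 50.2, 52.9 and 54.2 CPM with vehicle and at 41.4 to 49.1 (median 45.3) with Cmpd60. Of the Cmpd60 kidneys, 4 of 6 were below every vehicle kidney (-0.16 ± 0.07, edgeR unadjusted p = 0.0438, adjusted p = 0.425). Cdkn2c was at 13.0 ± 1.6 CPM against 15.2 ± 1.8 with vehicle (-0.23 ± 0.11, adjusted p = 0.472) and Cdkn2b at 3.36 ± 1.1 against 4.01 ± 1.1. Trp53 (33.2 ± 4.3 against 30.1 ± 3.0 CPM) and Mdm2 (62.9 ± 5.0 against 58.7 ± 3.7) overlapped between groups, with intervals of -0.08 to 0.36 and -0.07 to 0.27 on the log2 scale. Cdkn2a had 1 to 11 counts with Cmpd60 and 0 to 3 with vehicle, and no fold change is given against a group at the count floor, although its fitted value is counted among the 7 higher.

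In brain, the differences were small and of both signs, with 4 of the 10 genes higher and 6 lower. edgeR called 0 of the 10 (0.0205% of all genes tested), as did DESeq2 (1.64%) and limma-voom (0.00818%), 3 had an unadjusted p under 0.05 (13.8% of all genes) and 0 had one under 0.01 (4.29% of all genes). The median log2 fold change of the 10 was -0.11, and that of all genes 0.0072. Cdkn1b, the most abundant of the inhibitors in brain, was at 70.0 to 86.2 CPM (median 73.8) with vehicle and at 61.1 to 77.9 (median 64.1) with Cmpd60. Of the 6 Cmpd60 brains, 5 lay below every vehicle brain (-0.18 ± 0.06, 95% interval -0.32 to -0.05, edgeR adjusted p = 0.24).

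Cdkn1c was at 7.63 to 11.4 CPM (median 9.45) in vehicle brains and at 8.85 to 16.0 (median 11.3) in Cmpd60 brains, 2 of 6 being above the vehicle range (0.33 ± 0.13, edgeR adjusted p = 0.294). Those brains were replicates 35 and 38, whose summed choroid plexus markers (Ttr, Kl, Folr1, Aqp1 and Kcne2) were 902 and 909 CPM, against 213 to 592 in the other Cmpd60 brains and 530 to 750 with vehicle. Leaving out replicate 38 gave 0.22 for Cdkn1c, and the part of the choroid plexus in this value was not tested. Mdm2 was at 46.4 to 51.9 CPM (median 47.1) with vehicle and 49.7 to 53.3 (median 52.6) with Cmpd60, with 4 of 6 above all vehicle brains (0.11 ± 0.05, adjusted p = 0.338). Cdkn1a was at 25.3 to 31.7 CPM (median 26.8) with vehicle and at 20.6 to 31.4 (median 27.4) with Cmpd60. Its fitted difference of -0.05 ± 0.09 had an interval of -0.24 to 0.15. The difference in Cdkn1a response was 0.48 between kidney and brain (95% interval -0.16 to 1.13, edgeR adjusted p = 0.639) and -0.45 between brain and heart (-1.09 to 0.19, adjusted p = 0.736), so that a difference between tissues was not shown. Ccnd1 (41.6 ± 1.8 against 39.5 ± 1.5 CPM) and Trp53 (17.2 ± 1.4 against 15.8 ± 2.2) were close between groups, and Cdkn2a, Cdkn2b and Gdf15 stayed under 1 CPM in every brain. Cdkn2c was at 2.63 ± 0.40 CPM with Cmpd60 and 3.06 ± 1.0 with vehicle (-0.21 ± 0.18, edgeR adjusted p = 0.641). Its log2 fold change was -0.0051 without vehicle replicate 32.

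In heart, 9 of the 10 genes had a higher fitted level with Cmpd60, the exception being Cdkn1c. edgeR called 0 of the 10 (1.18% of all genes tested), 1 had an unadjusted p under 0.05 (13.5% of all genes) and the same 1, Ccnd1, under 0.01, where 5.34% of all genes did. DESeq2 called Ccnd1 alone (3.84% of all genes), and limma-voom called 0 (1.26%). The median log2 fold change of the 10 was 0.17, and that of all genes -0.0014. Ccnd1 was at 47.1 to 69.7 CPM (median 53.2) in vehicle hearts and at 63.3, 64.5, 84.1, 84.2 and 134 in Cmpd60 hearts, so that 3 of 5 were above every vehicle heart. The log2 fold change was 0.63 ± 0.16 (95% interval 0.28 to 0.98, edgeR adjusted p = 0.0733).

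The heart Ccnd1 value lay close to the threshold. Its adjusted p was 0.0493 with DESeq2, 0.0289 in edgeR with no filter on low counts and 0.0432 without replicate 68, whereas without replicate 69, the library at 134 CPM, the log2 fold change was 0.42 (adjusted p = 0.175). Summed endothelial markers (Pecam1, Cdh5, Kdr and Tek) were also highest in replicate 69, at 1072 CPM, against 796 to 878 in the other Cmpd60 hearts and 753 to 862 with vehicle. The part of endothelial cells in this value was not tested. Cdkn1a was at 22.05 to 53.9 CPM (median 37.4) with vehicle and at 31.2, 47.7, 51.7, 53.3 and 66.5 with Cmpd60, 1 of 5 being above the vehicle range (0.41 ± 0.20, 95% interval -0.02 to 0.84, edgeR adjusted p = 0.393). Cdkn1c was at 13.2 to 16.9 CPM (median 15.6) with vehicle and at 10.3, 12.3, 13.3, 14.2 and 17.3 with Cmpd60 (-0.20 ± 0.12, adjusted p = 0.489).

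The remaining heart values overlapped between groups. Cdkn1b was at 35.0 ± 4.4 CPM with Cmpd60 and 33.6 ± 3.5 with vehicle, Cdkn2c at 14.9 ± 2.3 and 12.9 ± 2.1, Trp53 at 12.5 ± 1.3 and 11.5 ± 2.3, and Mdm2 at 72.5 ± 1.8 and 70.8 ± 5.3. Mdm2 had the narrowest interval of the 10 genes in heart, -0.10 to 0.17 on the log2 scale. Gdf15 was at 0.911 to 2.83 CPM with Cmpd60 and 0.757 to 2.82 with vehicle, and Cdkn2a and Cdkn2b stayed under 1 CPM.

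**Figure D4:**
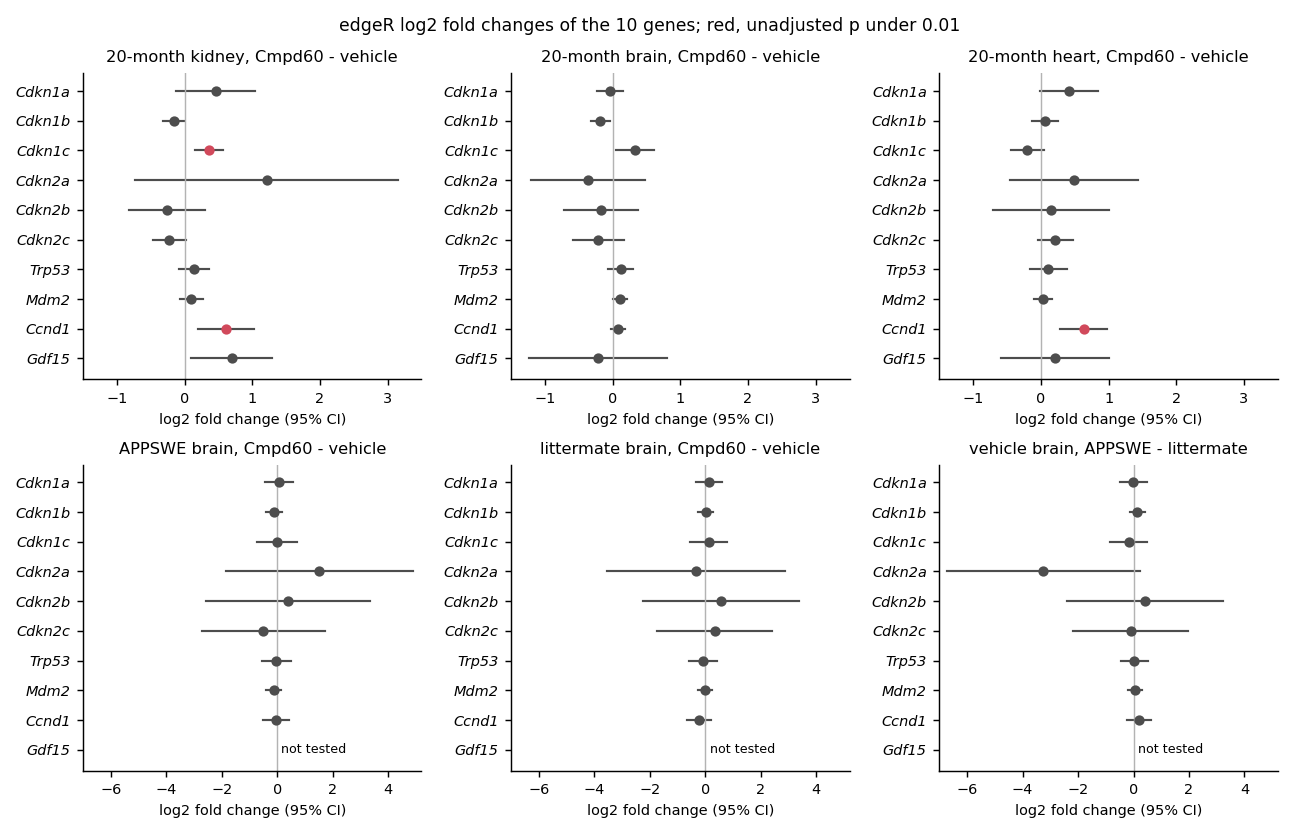
edgeR log2 fold changes of the 10 genes (points) with 95% confidence intervals (lines) in the 3 tissues of 20-month mice and in 3 comparisons of the APPSWE cohort, whose axis is wider. Red marks an unadjusted p under 0.01: Cdkn1c and Ccnd1 in kidney and Ccnd1 in heart. Gdf15 was not tested in the APPSWE cohort. The Cdkn2a points in kidney and in the APPSWE cohort rest in part on libraries at the count floor and depend on the prior count.

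The difference in response between tissues was tested itself, in a fit over all 34 libraries. Of the 10 genes, edgeR called 0 between kidney and brain, where 0.0885% of all genes were called, 0 between kidney and heart (0.35%) and 0 between brain and heart (0.0517%), and DESeq2 (0.649% to 1.9% of all genes) and limma-voom (0.0553% to 0.221%) also called 0 in each. At an unadjusted p under 0.05 the numbers were 1, 3 and 2 (10%, 11.7% and 9.08% of all genes), and under 0.01 they were 0, 1 and 1 (2.96%, 3.94% and 2.56%). Cdkn1c, fitted higher in kidney and brain and lower in heart, had the smallest p against heart, with a kidney minus heart difference of 0.55 ± 0.19 (adjusted p = 0.213) and a brain minus heart difference of 0.54 ± 0.19 (adjusted p = 0.343). Ccnd1 had that between kidney and brain, 0.51 ± 0.23 (adjusted p = 0.456). For Ccnd1 the kidney minus heart difference was -0.03 ± 0.23, with an interval of -0.50 to 0.43.

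In the APPSWE cohort, 9 of the 10 genes could be tested, and none passed a threshold in any comparison. edgeR, DESeq2 and limma-voom each called 0 of the 9 in the Cmpd60 response of APPSWE brains (0% of all genes called by edgeR), of littermate brains (0%), in vehicle APPSWE against vehicle littermate brains (0.00862%) and in the interaction of genotype and treatment (0%). In the same order DESeq2 called 0.069%, 0.0172%, 0.0905% and 0.0172% of all genes, and limma-voom 0%, 0%, 0.0129% and 0%. With so few genes called, 0 of the 9 does not set these genes apart. The number at an unadjusted p under 0.05 was 0 in each of the 4 comparisons, where 9.46%, 3.67%, 8.67% and 5.09% of all genes had one, and under 0.01 also 0, where 2.03%, 0.384%, 1.74% and 0.949% of all genes fell. The biological coefficient of variation over all genes was 0.729 in this cohort and 0.114 in the 20-month brains, so that only larger differences could be seen.

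Cdkn1a was at 14.3, 16.5, 19.9, 20.0 and 21.4 CPM in APPSWE vehicle brains and at 14.5, 17.7, 19.2 and 25.7 in APPSWE Cmpd60 brains. In littermates it was at 11.5, 17.1, 19.7, 20.9 and 23.2 CPM with vehicle and at 14.2, 19.8, 20.0, 20.2 and 27.7 with Cmpd60. All 4 groups overlapped. The Cmpd60 response was 0.07 ± 0.24 (95% interval -0.44 to 0.57) in APPSWE brains and 0.14 ± 0.23 (-0.33 to 0.61) in littermates. The genotype difference between vehicle brains had an interval of -0.48 to 0.47.

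Cdkn1b, Mdm2 and Ccnd1 were the most precisely measured. Cdkn1b was at 76.0 ± 11 CPM in APPSWE vehicle, 69.6 ± 6.3 in APPSWE Cmpd60, 69.5 ± 12 in littermate vehicle and 70.0 ± 9.9 in littermate Cmpd60 brains. Mdm2 was at 60.6 ± 8.6, 55.2 ± 3.0, 59.1 ± 7.6 and 58.5 ± 6.5 CPM in the same order, and Ccnd1 at 34.9 ± 6.3, 33.7 ± 4.2, 30.6 ± 10 and 26.0 ± 6.2. Cdkn1c was at 9.37 to 11.6 CPM and Trp53 at 15.7 to 16.9 CPM as means of the 4 groups. The Mdm2 response in APPSWE brains, -0.13 ± 0.13, had the smallest unadjusted p of the treated APPSWE brains, 0.311 (edgeR adjusted p = 0.887).

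The Ink4 genes and Gdf15 were near the floor in part of this cohort, whose libraries are named here by an s and the last number of their titles. Cdkn2c had 0 counts in APPSWE Cmpd60 library s141 and littermate vehicle library s155 and 5 counts in APPSWE vehicle library s140, while the other 16 grouped libraries were at 1.89 to 5.26 CPM. Cdkn2b had 0 counts in libraries s140, s142, s152 and s155. Of these 5 libraries all but library s142 were among those with fewer than 17000 genes detected. The highest Cdkn2c (5.26 CPM, library s152) and the highest Cdkn2b (1.75 CPM, library s141) were also in libraries under 17000 genes. Cdkn2a had 0 to 1 counts in APPSWE vehicle, 0 to 3 in APPSWE Cmpd60, 0 to 10 in littermate vehicle and 0 to 4 in littermate Cmpd60 brains. Gdf15 had 0 counts in all 10 vehicle brains, which allows at most 0.119 CPM in any of them, and 0 to 4 counts with Cmpd60. It did not pass the filter.

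**Figure D5:**
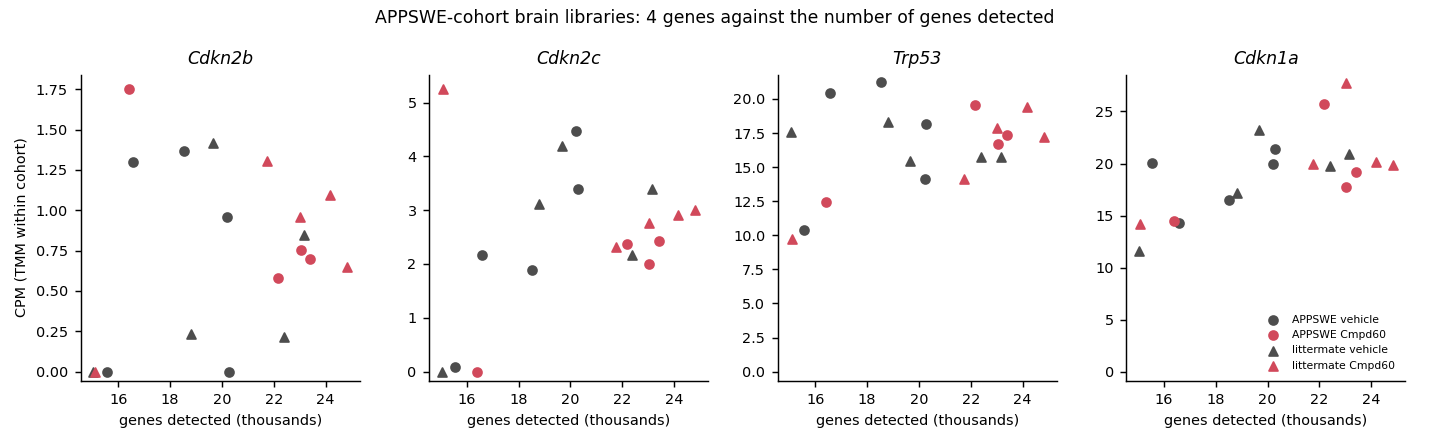
CPM of Cdkn2b, Cdkn2c, Trp53 and Cdkn1a in the 19 grouped brain libraries of the APPSWE cohort against the number of genes detected in each. Circles are APPSWE and triangles littermate brains, grey for vehicle and red for Cmpd60. The libraries with Cdkn2c at or near 0 lie at the left, below 17000 genes, as do those with the highest Cdkn2c and the highest Cdkn2b.

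The surrounding pathway was read through gene lists, whose counts in kidney, brain and heart stand against 11.3%, 13.8% and 13.5% of all genes at an unadjusted p under 0.05 and 2.07%, 1.64% and 3.84% called by DESeq2. Of 26 p53 targets, edgeR called 0 with Cmpd60 in kidney, brain or heart. At an unadjusted p under 0.05 there were 4, 6 and 3 of them, DESeq2 called 0, 2 and 1, and limma-voom called 0. In kidney the smallest p-values were of Rrm2b, a ribonucleotide reductase subunit, which was lower in all 6 Cmpd60 kidneys than in any vehicle kidney (35.2 against 45.4 CPM, adjusted p = 0.255), and Dcxr (73.2 against 90.0 CPM). In brain they were of Psrc1 (6.11 against 3.75 CPM, adjusted p = 0.0868) and the kinase Plk2 (148 against 116 CPM, adjusted p = 0.0956), both higher in all 6 Cmpd60 brains than in any vehicle brain and both called by DESeq2. In heart they were of Perp, a desmosome protein (1.28-fold higher with Cmpd60, with all 5 Cmpd60 hearts above every vehicle heart, adjusted p = 0.0916), and Rrm2b (40.9 against 48.3 CPM). The median log2 fold changes of the list were 0.11, 0.03 and 0.04.

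Of 10 genes that regulate Trp53, Mdm2 or the Cdkn2a locus, edgeR called 0 in each tissue, with 1, 5 and 1 at an unadjusted p under 0.05. DESeq2 called Bmi1 in kidney and in brain, and limma-voom called 0. Bmi1, a Polycomb subunit known to repress Cdkn2a, was below every vehicle library in all 6 Cmpd60 kidneys (50.0 against 63.6 CPM, -0.35 ± 0.08, edgeR adjusted p = 0.0792) and in all 6 Cmpd60 brains (48.9 against 55.6 CPM, -0.18 ± 0.05, adjusted p = 0.129). The next smallest p-values were of Dmtf1 in kidney (27.7 against 25.4 CPM) and Cop1, another p53 ubiquitin ligase, in brain (57.2 against 51.5 CPM). In heart they were of Dmtf1 (20.3 against 18.2 CPM) and Rchy1 (28.1 against 30.96 CPM).

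Of 14 matched cyclins, kinases, retinoblastoma and E2F genes, edgeR, DESeq2 and limma-voom called 0 in each tissue, with 1, 2 and 1 at an unadjusted p under 0.05 in kidney, brain and heart. E2f3 in kidney (6.67 against 9.32 CPM, adjusted p = 0.239), E2f1 in brain (11.3 against 9.19 CPM, adjusted p = 0.17) and Ccne1 in heart (1.202 against 0.677 CPM, adjusted p = 0.315) had the smallest p-values, followed by Cdk4 in kidney (66.5 against 58.8 CPM), Ccnd2 in brain (46.5 against 40.4 CPM) and Rbl2 in heart (80.2 against 91.3 CPM). Of 20 proliferation genes all 3 tools called 0 in each tissue, with 1, 2 and 1 at an unadjusted p under 0.05. In kidney 15 of the 20 had a higher fitted level (median log2 fold change 0.27), and 11 of 20 without replicate 55 (median 0.04). Those with an unadjusted p under 0.05 were Mcm5 in kidney (10.3 against 6.46 CPM), Plk1 and Aurka in brain, both near 1 CPM, and Mcm7 in heart (7.90 against 9.54 CPM). Cdc20 in kidney (4.13 against 2.79 CPM) and Plk1 in heart (0.395 against 0.197 CPM) came next.

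Of 24 tested genes of a list of secreted and other markers of senescent cells, edgeR called 0 in heart. DESeq2 called 5 (Timp1, Tgfb1, Igfbp3, Vegfa and Ccl2) and limma-voom called 2 (3.84% and 1.26% of all genes). The list set no direction for its genes, which include Lmnb1 and Glb1. At the unadjusted level 12 had a p under 0.05 (13.5% of all genes), and 6 higher and 1 lower had one under 0.01 (3.09% and 2.25% of all genes). The median log2 fold change of the list was 0.32. Without replicate 69, 8 of the 24 had a p under 0.05 and 4 under 0.01 (10.4% and 3.65% of all genes), and the median was 0.22. Tgfb1, a profibrotic cytokine, was above every vehicle heart in all 5 Cmpd60 hearts (28.2 against 22.2 CPM, edgeR adjusted p = 0.0501), and Timp1, an inhibitor of matrix metalloproteinases, in 4 of 5 (5.87 against 3.25 CPM, adjusted p = 0.0658). Leukocyte markers summed to 235 to 275 CPM in Cmpd60 and 169 to 268 in vehicle hearts, a sum made up mostly of Lyz2 (216 against 182 CPM). Of the 7 markers 5 had a lower fitted level with Cmpd60 (median log2 fold change -0.55), 2 of them at an unadjusted p under 0.01, Cd3e (0.113 against 0.437 CPM) and Cd79a (0.397 against 1.28 CPM), and DESeq2 called Cd79a. The part of leukocytes in the values of the senescence marker list was not tested. In kidney edgeR and limma-voom called 0 of 25, DESeq2 called Mmp13, and 4 had an unadjusted p under 0.05. Mmp13 was below every vehicle kidney in all 6 Cmpd60 kidneys (0.968 against 2.41 CPM, edgeR adjusted p = 0.216), and Plau was at 983 against 728 CPM. In brain 0 of 22 were called by any of the 3 tools and 6 had an unadjusted p under 0.05, led by Igfbp7 (26.9 against 22.02 CPM) and Vegfa (92.7 against 72.7 CPM).

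A short list of genes known to respond to histone deacetylase inhibitors in culture gave 0 calls by edgeR and limma-voom among 5 matched genes in each 20-month tissue. H1f0, also on the list, had no match, and the list set no direction of response. Ctps (43.9 against 31.98 CPM) and Clu had the smallest p-values in kidney, Clu (662 against 615 CPM) and Ctps in brain, and Gsn and Txnip (355 against 451 CPM) in heart. Gsn, the actin-severing gelsolin, was called by DESeq2 in heart with a log2 fold change of -0.19, and it was the only one of the 5 with an unadjusted p under 0.05 in any of the 3 tissues. Glucocorticoid and clock genes, which move with stress and time of day, gave 0 of 10 calls by edgeR and limma-voom in each tissue, and DESeq2 called Sgk1 in heart (67.3 against 45.3 CPM, edgeR adjusted p = 0.0578). At an unadjusted p under 0.05 there were 2, 3 and 3 of 10. Zbtb16 (3.99 against 7.38 CPM) and Per2 (35.4 against 21.6 CPM) had the smallest p-values in kidney, Dbp (68.6 against 54.3 CPM) and Per2 in brain, and Ciart (11.1 against 5.64 CPM) came after Sgk1 in heart.

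In the APPSWE cohort, edgeR, DESeq2 and limma-voom called 0 genes of these 7 lists in either Cmpd60 response, in the genotype difference or in the interaction. Of all genes, DESeq2 called 0.0172% to 0.0905% in these comparisons, limma-voom at most 0.0129% and edgeR at most 0.00862%. The smallest p among treated APPSWE brains was that of Hmgb1, a chromatin protein of the senescence marker list (45.9 against 73.4 CPM, edgeR adjusted p = 0.444). Psrc1, higher in every Cmpd60 brain at 20 months, was at 3.46 against 7.31 CPM in the APPSWE brains (-1.08 ± 0.51, adjusted p = 0.504).

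Across tissues of vehicle-treated mice, the lists differed in many of their genes. Of the 26 p53 targets, edgeR called 15 higher and 8 lower in kidney than in brain, led by Dcxr (85.1 against 4.32 CPM) and Perp (61.1 against 4.93 CPM), and 10 higher and 14 lower in brain than in heart, led by Perp and Ccng1, where 72.5% and 72.1% of all genes were called. Of the 20 proliferation genes, 15 were higher and 0 lower in kidney than in brain, with Mki67 at 8.73 against 0.886 CPM and Top2a at 6.48 against 0.604 CPM, and 14 were higher and 0 lower in kidney than in heart, where 32.8% and 31.1% of all genes were called higher in kidney. Among the cyclins and kinases, Cdk6, a partner of cyclin D1, was at 37.5 CPM in kidney, 14.0 in heart and 2.44 in brain, the same order as Ccnd1, while Ccnd2 was at 169 CPM in heart and 23.7 in kidney.

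The genes whose levels moved most like those of Cdkn1a between libraries were found from log2 CPM over the 34 libraries of 20-month mice after the mean of each tissue and treatment was subtracted, among 12041 genes. They were Atf3, a stress-induced transcription factor (Pearson r = 0.826), 1300014I06Rik (0.820), Anxa3 (0.788), the zinc transporter Slc39a6 (0.776) and ENSMUSG00000105987 (0.766). For Atf3 Spearman's rho was 0.785, and r was 0.778 without the 2 libraries farthest from the median of Cdkn1a, which were Cmpd60 kidney replicate 55 and vehicle heart replicate 67. Within tissues r was 0.895 in kidney, 0.909 in heart and 0.177 in brain. These libraries ranged from 23584609 to 57430113 gene counts, and the part of depth and tissue handling in the correlations was not tested. The values are descriptions of the 5 highest of 12041 correlations.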

How the data were processed

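RNA of kidney, brain and heart was sequenced by the authors from oligo-dT directional libraries. Per the labels and the study's methods, reads were trimmed with Trimmomatic 0.32, aligned with HISAT2 2.1.0 and counted per gene with HTSeq 0.11.0, giving the deposited count files, which hold raw whole-number counts. The genome build is not given in the sources used here. The summary lines of the counter (15.4% to 22.1% of reads) were left out. Genes that had over 2 counts in 3 or more of the fitted libraries were tested with edgeR 4.0.16 (TMM, quasi-likelihood, Benjamini-Hochberg) in R 4.3.3, separately for kidney, brain, heart and the APPSWE cohort, with 1 fit over the 34 libraries of 20-month mice for differences between tissues. DESeq2 1.42.0, limma 3.58.1 (voom), other filters and size factors, and leaving out each library were alternatives. Summaries of the lists without kidney 55 or heart 69, and of the members without Cdkn2a, were added after the data were seen. The scripts were tested on simulated data. CPM per kb used exon lengths from GENCODE vM1.

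The members and lists were chosen with earlier results of these data known. All 10 members are described, and of each other list the counts called and, where none was called, the 2 genes with the smallest p (where genes were called, up to 4 with the largest fold). Other genes of the lists that are named, including those called by DESeq2 and Hmgb1, Psrc1, Ccnd2, Cdk6 and Lcn2, were chosen after their values were seen.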

Additional observations from a re-analysis of the deposited data

Results flagged for a closer look

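In the 100 combinations of 1 gene and 1 group, the highest and lowest libraries were compared with the others by Dixon's criterion, and 15 stood apart. Gdf15 had 0 counts in all vehicle brains of the APPSWE cohort, so no gap could be tested there. For values well above the count floor chance gives about 1 in 20. That rate does not hold at the floor, where 1 library with counts among libraries with 0 always stands apart. None of the differences in response between tissues or genotypes passed the threshold for these genes.

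In 20-month mice, Cmpd60 kidney replicate 55 was high in Cdkn1a at 64.3 CPM (the other 5 at 21.5 to 36.5) and in Gdf15 at 41.3 CPM (12.8 to 19.3). Vehicle kidney replicate 47 was high in Cdkn1c at 34.8 CPM (29.1 to 30.7), Cmpd60 heart replicate 68 in Cdkn1b at 42.6 CPM (31.6 to 34.0) and vehicle brain replicate 32 in Cdkn2c at 5.11 CPM (2.40 to 2.98).

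The other 10 were in the APPSWE cohort, whose libraries are named by an s and the last number of their titles. Littermate vehicle library s150 was high in Cdkn1b at 89.5 CPM (60.1 to 68.4) and library s155 in Cdkn1c at 19.7 CPM (6.34 to 10.1), while littermate Cmpd60 library s156 was low in Cdkn1c at 7.99 CPM (12.0 to 13.4). Cdkn2a was at 0.389 CPM, 10 counts, in littermate vehicle library s154 (0 to 0.0712), at 0.1099 CPM, 3 counts, in APPSWE Cmpd60 library s148 and at 0.0361 CPM, 1 count, in APPSWE vehicle library s142, with 0 counts in the rest of the latter groups. APPSWE Cmpd60 library s141 was high in Cdkn2b at 1.75 CPM (0.583 to 0.754), and library s148 low in Ccnd1 at 27.5 CPM (35.4 to 36.2). Littermate Cmpd60 library s152 was high in Cdkn2c at 5.26 CPM (2.32 to 3.01) and in Mdm2 at 70.1 CPM (54.6 to 56.9). Libraries s141, s152 and s155 are among the 5 libraries with fewer than 17000 genes detected. The part of library quality in these values was not tested.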

How the results depend on the processing

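The number of genes called over the whole table moved with the tool. The 70 results of the 10 genes summarized below were scored by sign and side of the threshold, so they cannot be set against these counts. DESeq2 called 429 genes in kidney, 401 in brain, 746 in heart, 16 in APPSWE and 4 in littermate brains, 21 for genotype, 4 for the interaction, and 260, 515 and 176 for the response differences kidney minus brain, kidney minus heart and brain minus heart. The corresponding edgeR counts were 62, 5, 229, 0, 0, 2, 0, 24, 95 and 14. With no filter on low counts edgeR called 94 in kidney, 102 in brain, 8 in APPSWE and 2 in littermate brains and 2 for the interaction. limma-voom called 2 in brain, 58 for kidney minus brain and 60 for kidney minus heart. A fit of only the APPSWE groups called 1. Without the 5 libraries under 17000 genes, an alternative chosen after seeing the data, the counts were 3 in APPSWE and 1 in littermate brains and 7 for genotype.

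Leaving out 1 library at a time gave 20 to 131 genes in kidney, 1 to 372 in brain, 36 to 247 in heart, 0 to 1 in APPSWE and 0 to 2 in littermate brains, 1 to 4 for genotype, 0 to 1 for the interaction, and 15 to 94, 59 to 180 and 1 to 36 for the response differences in the order above.

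Alternatives were summarized for 70 results. These were all 10 genes in the kidney, brain and heart responses and between vehicle tissues, and in each other comparison the gene with the smallest p. Cdkn1a was added in both APPSWE-cohort responses and the genotype difference. Of the 1975 alternative values of these results, 1913 kept their sign and side of the threshold and 25 changed sign. Other genes in the APPSWE cohort, such as Cdkn2b and Cdkn2c, and in the response differences are not covered. Cdkn1a was -0.16 in APPSWE brains and 0.13 between genotypes with genes detected as a covariate, and Cdkn2a between vehicle brain and heart was 0.0248 with DESeq2 size factors and 0.0267 with DESeq2. With single libraries left out, the sign changed in brain for Cdkn1a (-0.0987 to 0.0184), Cdkn2a (-0.56 to 0.0421) and Gdf15 (-0.47 to 0.23), in heart for Cdkn1b (-0.0223 to 0.0937) and Gdf15 (-0.0382 to 0.47), in APPSWE brains for Cdkn1a (-0.103 to 0.18), between genotypes for Cdkn1a (-0.13 to 0.0839), in the interaction for Cdkn2a (-1.11 to 3.29), between vehicle kidney and brain for Cdkn1a (-0.14 to 0.10) and between vehicle brain and heart for Cdkn2a (-0.44 to 0.16). The cause was not tested. The count floor limits Cdkn2a and Gdf15. No paired analysis was possible because the groups share no replicate numbers.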

Other observations

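The APPSWE brain with conflicting treatment labels (library s139) was in no comparison. It held Cdkn1a at 16.6 CPM, Cdkn1b at 63.7, Cdkn1c at 8.23, Cdkn2b at 1.48, Cdkn2c at 2.99, Trp53 at 15.6, Mdm2 at 56.6 and Ccnd1 at 27.9, and had 0 counts of Cdkn2a and Gdf15. With this library counted as vehicle or as Cmpd60, edgeR called 0 genes in the APPSWE Cmpd60 response (0 without it), with 556 and 531 of 23273 at an unadjusted p under 0.01.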
